A study of Mus musculus with 6 samples.

Results

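The genes of the autophagy machinery and its cargo receptors were followed in RNA of sorted mouse leukemia cells, 44 genes of the 27179 in the count table. They were chosen by symbol and matched through their Entrez gene IDs. All 44 were found, and all 44 were abundant enough to be tested, among 12916 tested genes. The study compared 2 groups of 3 libraries each. The panobinostat group came from C57BL/6 mice that carried the leukemia A/E9a;NRASG12D and received panobinostat, an inhibitor of histone deacetylases, for 3 days. The vehicle group came from mice of the same strain with the same leukemia that received vehicle over the same time. In both groups the leukemia joins a truncated AML1-ETO fusion (A/E9a) with a mutant NRAS, so every library comes from cells with these oncogenes and none from normal cells. GFP-positive cells that excluded propidium iodide were sorted from the spleen. The labels do not say that the libraries are from different mice. The p-values therefore set the difference between groups against the spread of these libraries within groups, and that spread could be technical.

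Macroautophagy encloses cytoplasm in a double membrane that grows into an autophagosome and then fuses with lysosomes. The ULK1 kinase complex starts the process, a class III PI3-kinase complex marks the membrane with a lipid, and ATG9 vesicles and the lipid-transfer protein ATG2 feed its growth. A pair of ubiquitin-like conjugation systems attaches ATG8 proteins (the LC3 and GABARAP families) to the membrane, where receptors such as p62 dock their cargo. In mouse red cell precursors autophagy and the receptor BNIP3L (NIX) clear mitochondria during maturation, and blood stem cells depend on the pathway as well.

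Total counts were 25794869 to 32571961 in the panobinostat libraries and 27259492 to 29548544 in the vehicle libraries. The 44 genes took between 0.282% and 0.353% of a library's counts. None had fewer than 32 counts in any library. Libraries are named by the leading number of their count column, panobinostat 1, 5 and 6 and vehicle 2, 3 and 4. The column names carry 2 further numbers whose meaning is not stated: vehicle 2 and vehicle 3 share both, panobinostat 1 and panobinostat 6 share the first of them, and panobinostat 1 differs from the other 5 libraries in the last. Whether libraries that share these numbers are independent is therefore not known. Levels below are CPM, counts scaled to a common library total with TMM composition factors, and 1 count was worth 0.0315 to 0.0403 CPM. The progenitor and mast-erythroid markers listed for this leukemia were present in both groups: Kit was at 163 to 321 CPM with panobinostat and 210 to 221 CPM with vehicle, and Gata1, Gata2, Runx1, Hdc and Car2 were at 246 CPM or more in every library. Of the 7 markers Gata1 and Gata2 were called higher. Cd34 was low, at 2.90 to 32.3 CPM with panobinostat and 7.11 to 11.4 CPM with vehicle.

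Of the 44 autophagy genes 11 rose with panobinostat and 1 fell at a Benjamini-Hochberg adjusted p under 0.05 in edgeR's quasi-likelihood test over all tested genes, and 32 did not pass, of which 18 had overlapping groups. These are 25.0% higher and 2.27% lower, against 11.3% and 9.72% of all tested genes; in both directions together 27.3% passed, against 21.0% of all tested genes. The median log2 fold change was 0.28 over the 44 genes and 0.01 over all tested genes, and 34 of the 44 values were positive (77.3%, against 51.1% of all tested genes). With library size as the only scaling 28 of the 44 were positive, against 41.2% of all tested genes. The 11 rises lay between 0.36 and 1.17 on the log2 scale. They fell in the cargo receptors (Calcoco1, Sqstm1, Nbr1, Tax1bp1), the ATG8 family (Gabarapl1, Map1lc3b, Gabarap), the membrane-supply genes (Atg2a, Atg9a), and with Ambra1 and Atg16l1 1 gene each of the PI3-kinase and conjugation groups. Atg3 was the gene that fell. In bulk RNA, fewer cells of a type and less RNA per cell cannot be told apart.

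**Figure D1:**
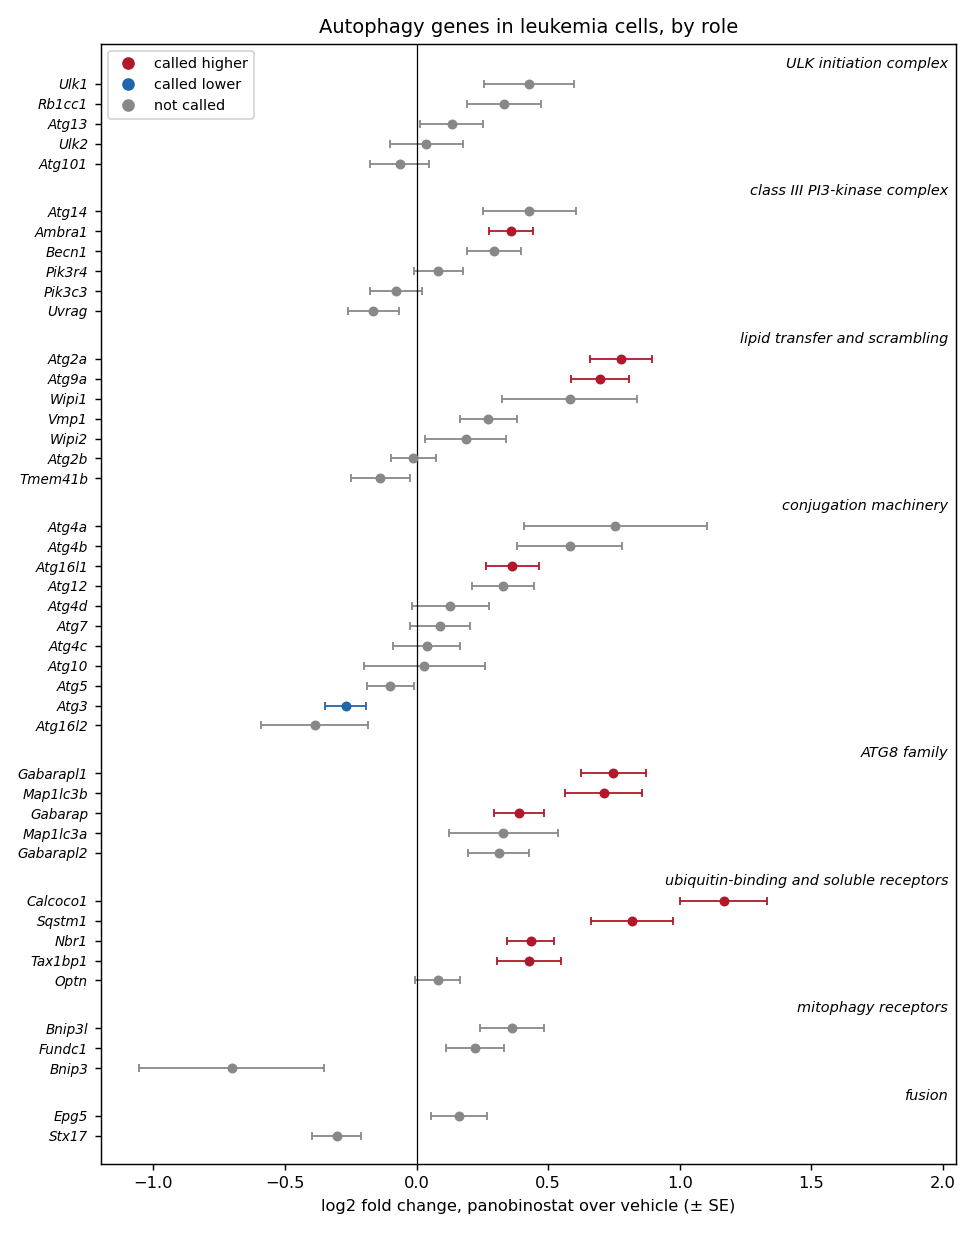
Log2 fold change of panobinostat over vehicle (x axis, ± SE of edgeR's fit, 3 libraries per group) for the 44 autophagy genes grouped by role. Red points passed the test higher (11 genes), the blue point lower (Atg3) and grey points did not pass (32 genes). All points of the ubiquitin-binding and soluble receptors and of the ATG8 family lie to the right of 0.

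The ranges of the groups were apart in 26 of the 44 genes (59.1%), with panobinostat above in 22 and below in 4. Over all tested genes the groups did not overlap in 44.6%, above in 21.9% and below in 22.7%. The number of calls depended on single libraries. It was 1 higher and 0 lower without vehicle 4, 3 and 0 without vehicle 2, 6 and 0 without vehicle 3, 8 and 0 without panobinostat 5, 9 and 0 without panobinostat 6, and 13 higher and 3 lower without panobinostat 1. The calls over all tested genes moved alike, from 438 without vehicle 4 to 4056 without panobinostat 1. In the same order of fits, 3.32%, 4.65%, 9.54%, 12.5%, 15.9% and 31.1% of all tested genes were called. With library size as the only scaling there were 7 higher and 2 lower among the 44 genes, and 24.8% of all tested genes were called. That scaling lowered the median of all genes to -0.10 and changed the share of higher calls over all genes to 1135 of 3200, against 1460 of 2715. Calcoco1 passed with each library left out and in every other alternative tried.

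The promoters of the genes with the largest rises in the receptor and ATG8 groups, and of Atg3, the gene that fell, are shown for orientation. Whether their sequence bears on the direction of change was not tested. Each run holds the 250 bases before the annotated start, 5′ to 3′ in the direction of the gene, from RefSeq on GRCm38.p6. They span chr11:50210821-50211070 on the minus strand for Sqstm1, chr15:102722179-102722428 on the minus strand for Calcoco1, chr8:121590188-121590437 on the plus strand for Map1lc3b, chr6:129532942-129533191 on the plus strand for Gabarapl1 and chr16:45158579-45158828 on the plus strand for Atg3. Capitals mark matches, on either strand, to 5 short motifs: the GC box CCGCCC, the E-box CACGTG, TCACGTGA (the core of the CLEAR element bound by TFEB and TFE3, which contains the E-box), TGACNNNGC (the core of the antioxidant response element bound by NRF2) and AGATAA (bound by GATA factors).
Sqstm1: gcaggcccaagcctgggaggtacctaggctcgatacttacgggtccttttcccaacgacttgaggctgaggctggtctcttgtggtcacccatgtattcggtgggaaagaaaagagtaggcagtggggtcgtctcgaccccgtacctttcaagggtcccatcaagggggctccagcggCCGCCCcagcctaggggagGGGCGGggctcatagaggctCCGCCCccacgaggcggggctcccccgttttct
Calcoco1: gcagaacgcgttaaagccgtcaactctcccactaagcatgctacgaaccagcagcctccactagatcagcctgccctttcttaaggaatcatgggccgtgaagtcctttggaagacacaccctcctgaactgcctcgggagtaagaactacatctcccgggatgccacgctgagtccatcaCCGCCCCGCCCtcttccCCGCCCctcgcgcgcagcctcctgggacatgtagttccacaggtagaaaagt
Map1lc3b: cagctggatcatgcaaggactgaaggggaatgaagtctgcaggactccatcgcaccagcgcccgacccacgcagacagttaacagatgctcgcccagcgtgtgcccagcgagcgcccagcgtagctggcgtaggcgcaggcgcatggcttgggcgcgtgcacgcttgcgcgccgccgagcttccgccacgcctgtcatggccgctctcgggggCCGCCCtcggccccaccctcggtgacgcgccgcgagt
Gabarapl1: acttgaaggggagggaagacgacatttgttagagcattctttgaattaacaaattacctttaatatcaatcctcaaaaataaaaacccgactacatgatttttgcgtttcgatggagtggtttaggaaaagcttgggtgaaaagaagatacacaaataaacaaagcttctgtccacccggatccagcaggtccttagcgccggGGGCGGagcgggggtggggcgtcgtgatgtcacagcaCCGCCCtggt
Atg3: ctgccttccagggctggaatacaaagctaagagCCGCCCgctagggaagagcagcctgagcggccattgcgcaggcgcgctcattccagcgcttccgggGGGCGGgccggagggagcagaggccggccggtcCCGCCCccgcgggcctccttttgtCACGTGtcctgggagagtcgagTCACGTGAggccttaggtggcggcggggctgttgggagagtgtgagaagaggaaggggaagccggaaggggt

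The runs for Sqstm1, Calcoco1, Map1lc3b and Gabarapl1 held GC boxes and none of the other 4 motifs. Atg3 held GC boxes, E-boxes and the CLEAR core. Of the 44 genes, 36 were matched in the promoter table, with 42 promoters. All 44 genes were tested, while the 32851 promoters set against them were not limited to tested genes, so the 2 sets are unlike. Counted by promoter, the GC box was in 23 of the 42 (54.8%), against 32.7% of all 32851 promoters. The E-box was in 4 of the 42 (Atg3, Atg5, Atg7, Bnip3), against 6.02% of all promoters, and the CLEAR core in 1 (Atg3), against 0.785%. The antioxidant core was in 6, belonging to 4 genes (Atg13, Tax1bp1, Ulk2, Vmp1), against 10.2%, and the GATA motif in 2 (Atg4a, Atg4d), against 9.99%. A match is a string of letters in this window and says nothing about binding.

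The ubiquitin-binding and soluble receptors held the 2 largest rises of the 44 genes. Calcoco1, a receptor for autophagy of the endoplasmic reticulum (Entrez gene 67488; chr15:102706777-102722178), was at 40.6, 36.9 and 29.7 CPM in panobinostat 1, 5 and 6, against 15.4, 18.6 and 13.7 CPM in vehicle 2, 3 and 4. Every treated library stood well above every vehicle library. The gene rose 2.25-fold (log2 fold change 1.17 ± 0.17 SE, edgeR adjusted p = 0.0068). Sqstm1, which encodes p62, the receptor that binds ubiquitin chains and LC3 and is itself degraded by autophagy (Entrez gene 18412; chr11:50200152-50210820), was at 257, 266 and 210 CPM with panobinostat, against 118, 167 and 132 CPM with vehicle. The groups did not overlap, and vehicle 3 was the nearest to the treated libraries. Sqstm1 rose 1.76-fold (0.82 ± 0.16 SE, edgeR adjusted p = 0.014). Of its 50-base transcript windows 15.5% also stood in transcripts of the gene Mrnip.

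Nbr1, a receptor built like p62 (Entrez gene 17966; chr11:101552107-101581951), was at 148, 142 and 127 CPM with panobinostat, against 99.8, 106 and 103 CPM with vehicle, and rose 1.35-fold (0.43 ± 0.09 SE, edgeR adjusted p = 0.018). Tax1bp1, a receptor that also restrains NF-kappaB signalling (Entrez gene 52440; chr6:52713692-52766780), was at 192, 253 and 213 CPM with panobinostat, against 164, 173 and 153 CPM with vehicle. It rose 1.34-fold (0.43 ± 0.12 SE, edgeR adjusted p = 0.045), and panobinostat 5, not panobinostat 1, was the highest library. Optn, the optineurin gene and the most abundant of the 5 per kilobase of exon, was at 330, 303 and 306 CPM with panobinostat, against 302, 288 and 299 CPM with vehicle. The lowest treated library lay just above the highest vehicle library, and the difference of 0.08 ± 0.08 (SE) did not pass (edgeR adjusted p = 0.52). The calls of Sqstm1, Nbr1 and Tax1bp1 were lost without vehicle 2 (edgeR adjusted p = 0.062, 0.075 and 0.13) or vehicle 4 (0.076, 0.091 and 0.17), those of Nbr1 and Tax1bp1 also without vehicle 3 (0.059 and 0.097), and that of Tax1bp1 also without panobinostat 5 (0.095) or panobinostat 6 (0.082) and with library size alone (0.10) or no filter (0.054).

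**Figure D2:**
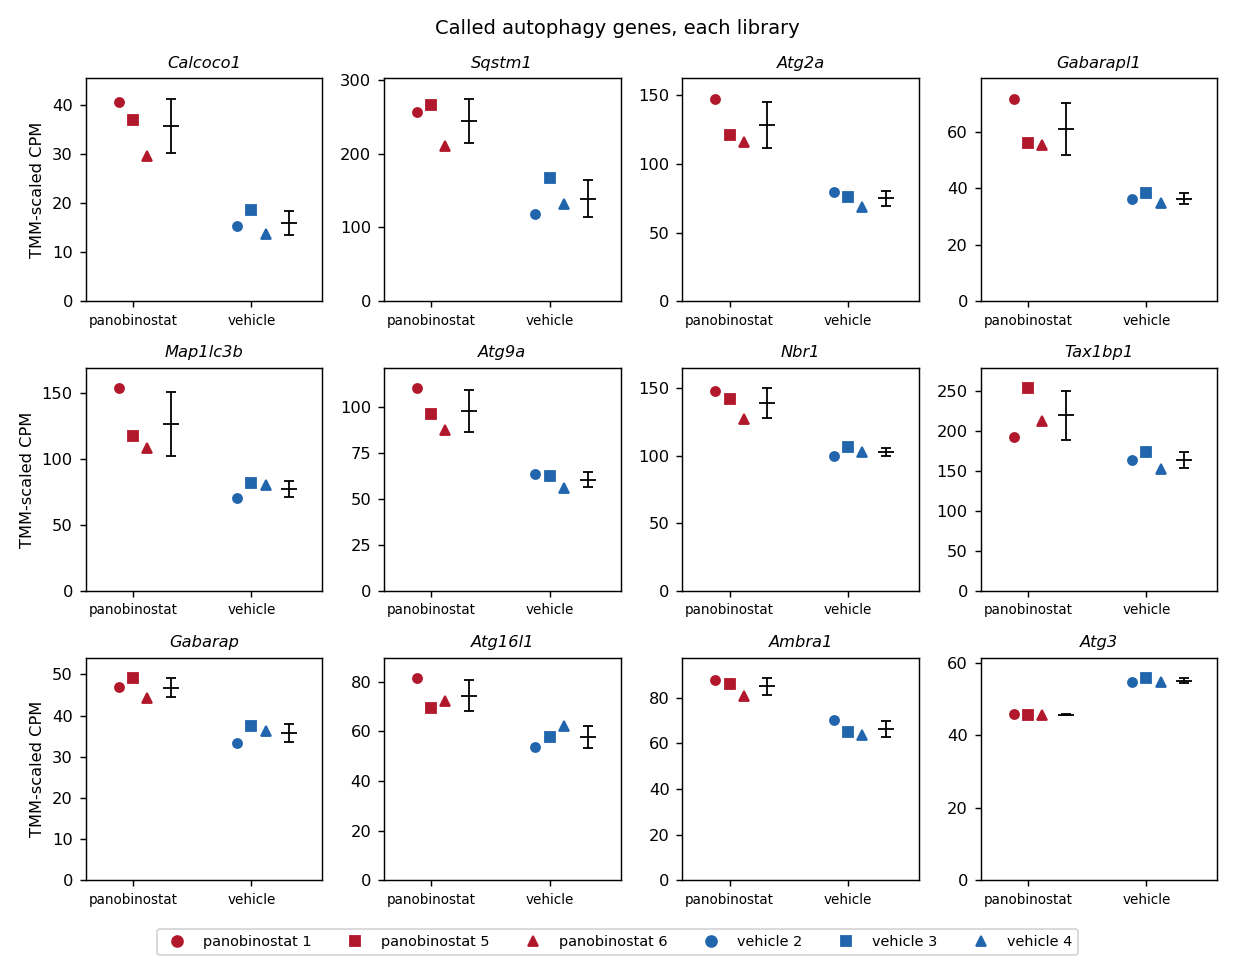
TMM-scaled CPM in each library (y axis, starting at 0) of the 12 autophagy genes that passed the test, ordered by log2 fold change. Red symbols are the panobinostat libraries, blue symbols the vehicle libraries, and the black bar is the mean ± SD of 3 libraries; in Calcoco1 the treated values run from 29.7 to 40.6 and the vehicle values from 13.7 to 18.6, and in Atg3 the treated values lie below.

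In the ATG8 family all 5 genes had panobinostat libraries above all vehicle libraries, and 3 passed the test. Gabarapl1 (Entrez gene 57436; chr6:129533192-129542331) was at 71.7, 56.0 and 55.15 CPM with panobinostat, against 36.1, 38.2 and 34.6 CPM with vehicle, and rose 1.68-fold (log2 fold change 0.75 ± 0.12 SE, edgeR adjusted p = 0.010). Map1lc3b, the LC3B gene whose protein is the usual marker of autophagosomes (Entrez gene 67443; chr8:121590438-121598760), was at 154, 118 and 108 CPM with panobinostat, against 70.2, 81.6 and 79.9 CPM with vehicle. It rose 1.64-fold (0.71 ± 0.15 SE, edgeR adjusted p = 0.018), with panobinostat 1 apart from the other treated libraries. Gabarap, the founding member of its branch (Entrez gene 56486; chr11:69991370-69994949), was at 47.0, 49.0 and 44.4 CPM with panobinostat, against 33.3, 37.5 and 36.3 CPM with vehicle, and rose 1.31-fold (0.39 ± 0.09 SE, edgeR adjusted p = 0.029).

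Gabarapl2, a family member also known as GATE-16, was at 79.2, 65.2 and 63.6 CPM with panobinostat, against 50.7, 58.9 and 57.95 CPM with vehicle, and the difference was not called (0.31 ± 0.12 SE, edgeR adjusted p = 0.098). Map1lc3a, which encodes LC3A, was near 3 CPM in every library, at 3.98, 3.1 and 3.0 CPM with panobinostat against 2.65, 2.73 and 2.64 CPM with vehicle, and did not pass (0.33 ± 0.21 SE, edgeR adjusted p = 0.29). Calls of Gabarapl1 and Map1lc3b were lost without vehicle 2 (edgeR adjusted p = 0.054 and 0.078) or vehicle 4 (0.064 and 0.076). That of Gabarap was lost without any 1 vehicle library (0.074 to 0.11), without panobinostat 5 (0.080) and with library size alone (0.059). Part of the family's sequence also stands in other annotated transcripts: of the 50-base windows of their transcripts, 23.1% of Gabarapl1 (an overlapping noncoding gene), 12.2% of Gabarapl2 and 6.19% of Map1lc3b were found in other genes, so some reads of these genes are uncertain.

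Per kilobase of exon, the family summed to 105 ± 12.3 CPM per kb with panobinostat and 74.0 ± 4.27 CPM per kb with vehicle (SD, n = 3 each). Gabarapl1 made up 28.7 ± 1.15% of the sum with panobinostat and 24.4 ± 1.40% with vehicle. Map1lc3b made up 15.9 ± 1.1% with panobinostat and 13.9 ± 0.399% with vehicle. Gabarapl2 made up 28.4 ± 0.440% with panobinostat and 32.5 ± 0.989% with vehicle. Gabarap made up 24.3 ± 2.59% with panobinostat and 26.2 ± 0.15% with vehicle, and Map1lc3a 2.70 ± 0.118% with panobinostat and 3.07 ± 0.146% with vehicle. The GABARAP branch held most of the ATG8 transcripts per length in both groups. Lengths are of all annotated exons of a gene joined, 7517 bases for Map1lc3b and 1844 to 2325 for Gabarap, Gabarapl1 and Gabarapl2. Where a shorter form is expressed, the joined length lowers the level per kilobase. In CPM without length Map1lc3b had the highest mean of the family, 126 with panobinostat and 77.2 with vehicle. Gabarapl2 was next, at 69.4 and 55.9 CPM.

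**Figure D3:**
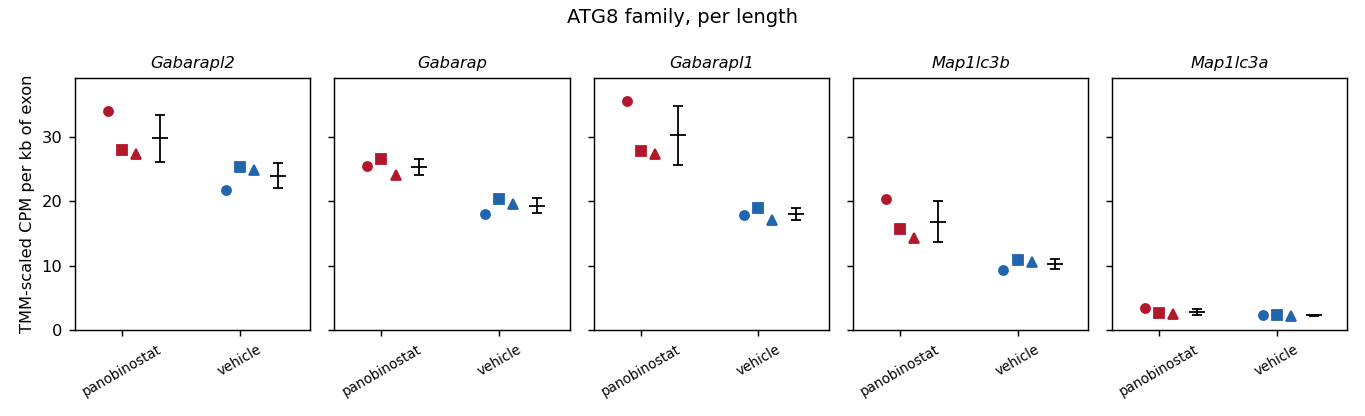
Level per length of the 5 ATG8 genes in each library, as TMM-scaled CPM per kilobase of exon (y axis, shared and starting at 0), ordered by the vehicle mean. Red symbols are panobinostat, blue symbols vehicle, black bars the mean ± SD of 3 libraries; in each gene all red symbols lie above the blue ones.

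Genes that supply and shape the growing membrane came next. Atg2a, a lipid-transfer protein that bridges the endoplasmic reticulum and the growing membrane (Entrez gene 329015; chr19:6241478-6262304), was at 148, 121 and 116 CPM with panobinostat, against 79.9, 75.7 and 68.9 CPM with vehicle, and rose 1.72-fold (log2 fold change 0.78 ± 0.12 SE, edgeR adjusted p = 0.0080). Atg9a, the transmembrane scramblase of the seed vesicles (Entrez gene 245860; chr1:75180861-75192010), was at 110, 96.5 and 87.7 CPM with panobinostat, against 63.5, 62.3 and 56.0 CPM with vehicle, and rose 1.62-fold (0.70 ± 0.11 SE, edgeR adjusted p = 0.0092). In both genes the lowest treated library stood clear of the highest vehicle library. Both calls were kept without any 1 library but vehicle 4 (edgeR adjusted p = 0.053 for Atg2a and 0.058 for Atg9a). Of the 50-base windows of Atg9a 30.5% stood in other annotated transcripts, nearly all in the gene model Gm29253.

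Vmp1, an endoplasmic reticulum scramblase and the most abundant of this group per kilobase, was at 94.5, 107 and 83.5 CPM with panobinostat, against 76.3, 82.1 and 77.9 CPM with vehicle, and did not pass (0.27 ± 0.11 SE, edgeR adjusted p = 0.11). The other 4 genes (Atg2b, Tmem41b, Wipi1, Wipi2) had log2 fold changes from -0.14 to 0.58 and overlapping groups. Atg2b, the second ATG2 gene, was at 85.05, 96.9 and 96.0 CPM with panobinostat, against 94.9, 90.3 and 94.9 CPM with vehicle. The ratio of Atg2a to Atg2b counts within a library, which no scaling of libraries can change, was 1.74, 1.25 and 1.21 with panobinostat, against 0.841, 0.838 and 0.726 with vehicle.

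Such within-library ratios were formed for 9 pairs of related genes, and none could pass: an exact permutation test of 3 against 3 libraries cannot go below p = 0.1 (two-sided). Of the 9 pairs 7 reached that value, 0.13 after Benjamini-Hochberg adjustment over the 9. Reaching it means only that the groups did not overlap, as 44.6% of all tested genes taken singly did not. Atg2a, Atg16l1, Map1lc3b and Gabarapl1 were called genes set over uncalled partners, so the count is not independent of the calls. The ratio of Atg14 to Uvrag, the partners that direct the PI3-kinase to autophagosomes or to endosomes, was 0.770, 0.509 and 0.476 with panobinostat, against 0.407, 0.403 and 0.338 with vehicle. For Atg16l1 over Atg16l2 it was 20.5, 13.4 and 13.2 with panobinostat, against 9.86, 8.80 and 8.64 with vehicle. For Gabarapl1 over Gabarapl2 it was 0.905, 0.859 and 0.867 with panobinostat, against 0.711, 0.648 and 0.597 with vehicle. Map1lc3b over Map1lc3a, Wipi1 over Wipi2 and Bnip3l over Bnip3 were also higher in all treated libraries. Ulk1 over Ulk2 was 3.34, 1.59 and 1.66 with panobinostat, against 1.77, 1.46 and 1.54 with vehicle, and overlapped (exact p = 0.4), as did Atg4b over Atg4a (exact p = 0.9).

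In the conjugation machinery 1 gene rose, 1 fell and 9 did not pass. Atg16l1, the scaffold that places LC3 conjugation on the membrane (Entrez gene 77040; chr1:87756007-87792428), was at 81.5, 69.4 and 72.3 CPM with panobinostat, against 53.5, 57.7 and 62.2 CPM with vehicle, and rose 1.29-fold (log2 fold change 0.36 ± 0.10 SE, edgeR adjusted p = 0.043). Atg3, the E2-like enzyme that joins ATG8 proteins to lipid (Entrez gene 67841; chr16:45158829-45188538), was at 46.0, 45.6 and 45.7 CPM with panobinostat, against 54.7, 55.9 and 54.8 CPM with vehicle. It was 1.21-fold lower (-0.27 ± 0.08 SE, edgeR adjusted p = 0.047), a small difference between groups that were both tight. The call of Atg16l1 was lost without any 1 library other than panobinostat 1 (edgeR adjusted p from 0.059 to 0.14) and with library size alone (0.090), upper quartile scaling (0.051) or no filter (0.066). That of Atg3 was lost without any 1 library other than panobinostat 1 (0.11 to 0.16), with limma-voom (0.052) and with no filter (0.076).

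Atg4b, the main protease that trims ATG8 proteins, was at 106, 61.5 and 68.4 CPM with panobinostat, against 57.0, 50.4 and 49.97 CPM with vehicle, and did not pass (0.58 ± 0.20 SE, edgeR adjusted p = 0.078; 0.029 in DESeq2). Without panobinostat 1 its log2 fold change was 0.31 and passed (edgeR adjusted p = 0.047), as it did without panobinostat 5 (0.046). Atg12, the ubiquitin-like partner of ATG5, was at 57.5, 47.5 and 48.6 CPM with panobinostat, against 36.5, 44.5 and 41.4 CPM with vehicle, and did not pass (0.33 ± 0.12 SE, edgeR adjusted p = 0.089). Atg5 itself, the most abundant of the group per kilobase, was at 42.4, 41.1 and 42.6 CPM with panobinostat, against 42.8, 44.05 and 48.3 CPM with vehicle, with no call (edgeR adjusted p = 0.45). The other 6 genes of the group were between -0.39 (Atg16l2) and 0.76 (Atg4a) on the log2 scale. Atg4a, named here after its values were seen, was at 77.3 CPM in panobinostat 1 and at 29.0 and 34.8 CPM in panobinostat 5 and 6, against 30.9, 25.3 and 27.4 CPM with vehicle. Its log2 fold change was 0.20 without panobinostat 1, and 51.2% of its 50-base windows stood in other transcripts, chiefly its pseudogene Atg4a-ps.

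In the ULK initiation complex 0 of 5 genes passed in edgeR, limma-voom and DESeq2 alike, and 2 had an unadjusted p under 0.05 in edgeR. Ulk1, the kinase that starts autophagy, was at 163, 111 and 108 CPM with panobinostat, against 104, 90.4 and 89.8 CPM with vehicle, and did not pass (log2 fold change 0.43 ± 0.17 SE, edgeR adjusted p = 0.11; 0.21 on the log2 scale without panobinostat 1). Rb1cc1, which encodes its scaffold FIP200, was at 60.9, 86.7 and 72.4 CPM with panobinostat, against 55.3, 63.9 and 55.5 CPM with vehicle, and did not pass (0.33 ± 0.14 SE, edgeR adjusted p = 0.13), but did without panobinostat 1 (0.023). Without panobinostat 5 its log2 fold change was 0.19 (edgeR adjusted p = 0.33). Ulk2, Atg13 and Atg101 lay between -0.06 and 0.13 on the log2 scale.

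Of 6 genes around the class III PI3-kinase, Ambra1 rose. Ambra1, an adaptor of Beclin 1 and of cyclin D degradation (Entrez gene 228361; chr2:91730138-91918849), was at 87.9, 86.1 and 80.7 CPM with panobinostat, against 70.3, 64.9 and 63.5 CPM with vehicle, a 1.28-fold rise (log2 fold change 0.36 ± 0.08 SE, edgeR adjusted p = 0.027). Its call was lost without any 1 vehicle library (0.063 to 0.13), without panobinostat 5 (0.067) and with library size alone (0.069). Becn1, the Beclin 1 gene, was at 141, 117 and 115 CPM with panobinostat, against 103, 98.1 and 104 CPM with vehicle, and did not pass (0.29 ± 0.10 SE, edgeR adjusted p = 0.083). It shares 36.8% of its 50-base windows with other transcripts, mainly of the overlapping gene Cntd1. Atg14 was at 20.4, 15.2 and 14.3 CPM with panobinostat, against 13.6, 12.8 and 10.7 CPM with vehicle, and did not pass (0.43 ± 0.18 SE, edgeR adjusted p = 0.13). Without panobinostat 1 the log2 fold change was 0.25 for Atg14 and 0.19 for Becn1. Pik3c3, Pik3r4 and Uvrag lay between -0.16 and 0.08 on the log2 scale.

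The mitophagy receptors did not pass, and the most abundant autophagy gene per kilobase was among them. Bnip3l, the receptor for mitochondria in maturing red cells (Entrez gene 12177; chr14:66985238-67008877), was at 468, 382 and 370 CPM with panobinostat, against 289, 337 and 323 CPM with vehicle. The groups did not overlap, and the difference of 0.36 ± 0.12 (log2, SE) did not pass in edgeR (adjusted p = 0.072) and passed in DESeq2 (0.028). Of its 50-base windows 20.8% also stood in the pseudogene Bnip3l-ps, and 47.2% of those of Bnip3 in other gene models. Bnip3, the paralog induced by hypoxia, was near the bottom of the set, at 2.38, 1.29 and 1.135 CPM with panobinostat against 2.91, 2.98 and 1.95 CPM with vehicle (-0.70 ± 0.35 SE, edgeR adjusted p = 0.19; 0.028 without panobinostat 1). Fundc1, a receptor in the outer mitochondrial membrane, was at 23.9, 23.1 and 22.3 CPM with panobinostat, against 18.3, 21.7 and 19.5 CPM with vehicle, and did not pass (0.22 ± 0.11 SE, edgeR adjusted p = 0.19).

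Of the fusion genes, Stx17, the SNARE of finished autophagosomes, was at 67.8, 61.5 and 70.3 CPM with panobinostat, against 88.3, 78.4 and 79.6 CPM with vehicle. All treated libraries were lower, and the difference did not pass (log2 fold change -0.30 ± 0.09 SE, edgeR adjusted p = 0.058); it passed in DESeq2 (0.037), with library size alone (0.026) and without panobinostat 1 (0.045). Epg5, a tether between autophagosomes and lysosomes, had overlapping groups and a log2 fold change of 0.16.

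Per kilobase of exon the order of levels was led by receptors. The order depends on the joined length of all annotated exons, which can exceed that of the expressed form. Bnip3l stood at 105 ± 13.9 CPM per kb with panobinostat and 81.9 ± 6.36 with vehicle (SD, n = 3 each). Optn stood at 83.4 ± 3.97 CPM per kb with panobinostat and 78.9 ± 1.89 with vehicle. Sqstm1 stood at 72.9 ± 8.96 CPM per kb with panobinostat and 41.3 ± 7.51 with vehicle. The means of Bnip3l and Optn in vehicle differed by less than the SD of Bnip3l. The next gene in vehicle, Gabarapl2, was at 29.8 ± 3.69 CPM per kb with panobinostat and 24.0 ± 1.94 with vehicle. Gabarapl1 stood at rank 4 of 44 with panobinostat and rank 8 with vehicle, and Calcoco1 at rank 32 with panobinostat and rank 40 with vehicle. Atg10, Bnip3 and Atg16l2 closed the order in both groups, at 1.26 CPM per kb or less.

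**Figure D4:**
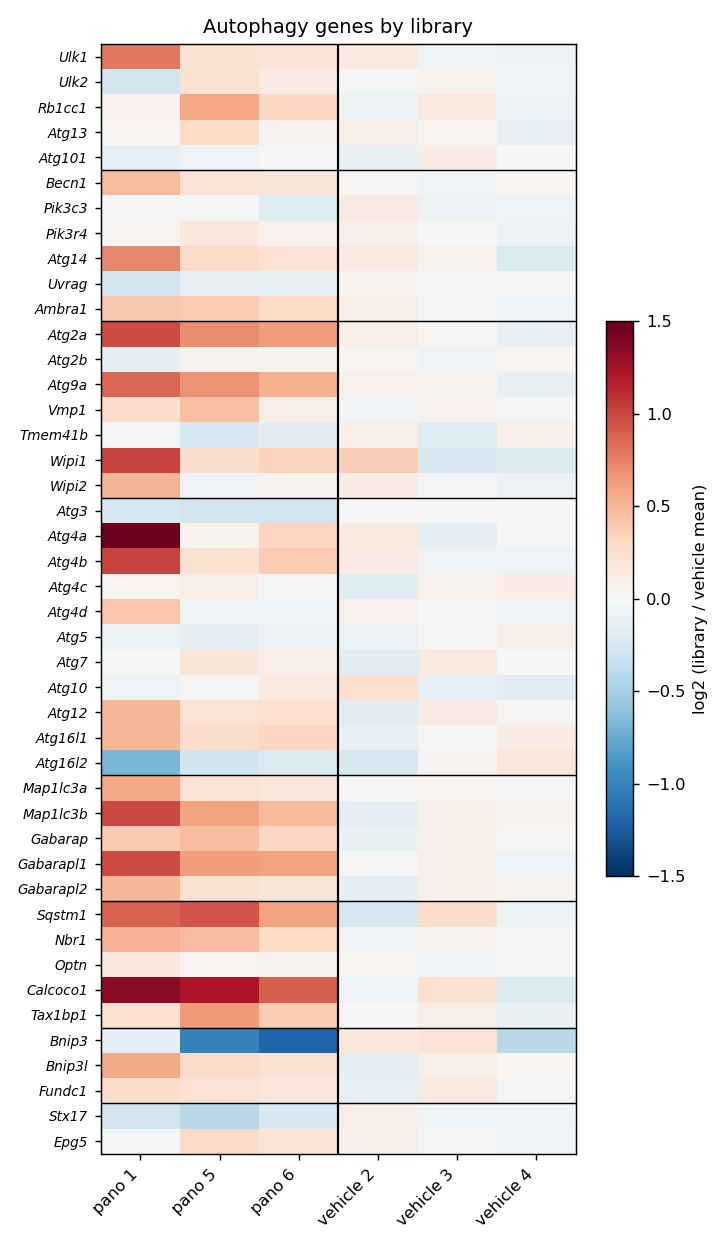
Log2 ratio of each library's TMM-scaled CPM to the vehicle mean (colour) for the 44 autophagy genes (rows, grouped by role) in panobinostat libraries 1, 5 and 6 (left of the thick line) and vehicle libraries 2, 3 and 4. Atg4a in panobinostat 1 is the darkest red cell, and Calcoco1, Sqstm1, Atg2a and Atg9a are red in all 3 treated libraries.

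The treated libraries differed among themselves. Panobinostat 1 was the highest treated library in 25 of the 44 genes (56.8%), against 42.8% of all tested genes. Panobinostat 5 was the highest in 13 of the 44 and panobinostat 6 in 6. Of the 12 that passed, panobinostat 1 was the highest in 9 (75.0%), against 35.2% of all called genes. These shares are not alike, since all called genes include 1255 that fell and the 12 include 1. Panobinostat 1 was the treated library farthest from the vehicle mean, in either direction, in 66.7% of the 12 and 43.8% of all called genes. Late erythroid genes were also highest in panobinostat 1: 10 of 13 listed were in the table, and their summed level was 75028, 39151 and 33707 CPM in panobinostat 1, 5 and 6, against 6749 to 8911 CPM with vehicle, with 7 of the 10 called higher. Red pulp macrophage markers summed to 29.5 to 88.5 CPM with panobinostat and 19.3 to 30.4 CPM with vehicle, highest in panobinostat 1, with 2 of 11 called. Embryonic globins, highest in panobinostat 5, summed to 335 to 784 CPM with panobinostat and 6.85 to 14.8 CPM with vehicle, with 3 of 3 called higher. Megakaryocyte genes summed to 472 to 613 CPM with panobinostat and 242 to 290 CPM with vehicle, with 4 of 5 tested genes called higher. Among other uncalled genes, leaving out panobinostat 1 gave log2 fold changes of 0.21 for Gabarapl2, 0.19 for Map1lc3a and -1.11 for Bnip3, and leaving out panobinostat 5 gave 0.18 for Vmp1. The 12 calls held without panobinostat 1 (12 of 12). In that fit 31.1% of all tested genes were called, and the median log2 fold change of the 44 genes was 0.20. The 7 calls of Calcoco1, Sqstm1, Nbr1, Gabarapl1, Map1lc3b, Atg2a and Atg9a held without panobinostat 5. Late erythroid sums stayed above vehicle in every treated library, so leaving out 1 of them does not separate these cells or states from treatment. The part of these cells or states in the autophagy values was not tested.

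Markers of other spleen cells were low. Neutrophil markers summed to 2.22 to 8.42 CPM with panobinostat and 4.07 to 9.08 CPM with vehicle, with 5 of 8 tested. B cell markers summed to 4.03 to 7.95 CPM with panobinostat and 3.17 to 5.99 CPM with vehicle, with 5 of 5 tested. T cell markers summed to 1.41 to 6.42 CPM with panobinostat and 2.66 to 3.65 CPM with vehicle, with 1 of 7 tested. In edgeR 0 of the tested genes of these 3 lists were called, and 0 had an unadjusted p under 0.05. The list for plasmacytoid dendritic cells summed to 161 to 248 CPM with panobinostat and 78.3 to 91.0 CPM with vehicle, nearly all of it Bst2, an interferon-stimulated gene; its defining marker Siglech was at 0.103 CPM or less in every library.

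Genes around the core pathway were taken from 6 lists of 89 genes, of which 82 were tested. Of these 18 rose and 4 fell (26.8% called, against 21.0% of all tested genes), with a median log2 fold change of 0.11. That is 22.0% higher and 4.88% lower, against 11.3% and 9.72% of all tested genes. Without 1 library the counts ran from 3 higher and 0 lower (without vehicle 2 or vehicle 4) to 26 higher and 9 lower (without panobinostat 1). In those 3 fits 4.65%, 3.32% and 31.1% of all tested genes were called. Of 12 tested transcription factors 5 rose (41.7%, against 11.3% of all tested genes) and 0 fell. Tfe3, a factor of lysosome and autophagy genes related to TFEB, was at 95.3 ± 7.94 CPM with panobinostat and 51.6 ± 2.97 CPM with vehicle (SD, n = 3 each; 1.85-fold, edgeR adjusted p = 0.0042). Nfe2l2, the oxidative stress factor NRF2 that in mice activates Sqstm1, was at 206 ± 12.5 CPM with panobinostat and 125 ± 10.52 CPM with vehicle (1.65-fold, edgeR adjusted p = 0.0063). Foxo3 and Ddit3, a forkhead factor and the stress factor CHOP, rose 1.41-fold and 1.603-fold (edgeR adjusted p = 0.024 and 0.042), and the remaining call was Gata1. Tfeb itself was not called (edgeR adjusted p = 0.17).

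Among 10 accessory factors 5 rose and 0 fell. Trp53inp1, a p53-induced protein that binds LC3, was at 188 ± 76.9 CPM with panobinostat and 46.7 ± 18.4 CPM with vehicle (SD, n = 3 each; 4.02-fold, edgeR adjusted p = 0.014), and its relative Trp53inp2 rose 2.48-fold (edgeR adjusted p = 0.019). Nrbf2, a subunit of the autophagy PI3-kinase, and Zfyve1, a marker of the sites where autophagosomes start, rose 1.36-fold and 1.42-fold (edgeR adjusted p = 0.018 and 0.022). Of 14 tested fusion genes 3 rose (21.4%, against 11.3% of all tested genes) and 2 fell (14.3%, against 9.72%). Lamp2, a lysosomal membrane protein needed for fusion, was at 191 ± 15.0 CPM with panobinostat and 105 ± 4.72 CPM with vehicle (1.81-fold, edgeR adjusted p = 0.0041). Vps11 and Vps41 of the HOPS tethering complex rose 1.41-fold and 1.28-fold, and Vps16 of the same complex was 1.24-fold lower (edgeR adjusted p = 0.014, 0.020 and 0.041). Vps39, also of HOPS and named after its values were seen, was 1.38-fold lower (edgeR adjusted p = 0.045).

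Of 22 tested upstream genes of the mTORC1, Rag and AMPK group 2 rose (9.09%, against 11.3% of all tested genes) and 0 fell. The 2 were Prkab1, a regulatory AMPK subunit (1.33-fold, edgeR adjusted p = 0.026), and Lamtor4 of the Ragulator complex (1.32-fold, edgeR adjusted p = 0.043). The median log2 fold change of this group was -0.01. Of 19 other selective receptors 2 rose, a share just below the 11.3% of all tested genes, and 0 fell. The receptors that rose were Ccpg1 for the endoplasmic reticulum (1.47-fold, edgeR adjusted p = 0.011) and Pink1, the kinase that marks damaged mitochondria (1.51-fold, edgeR adjusted p = 0.033). Among 5 enzymes that add or remove acetyl groups on autophagy proteins, Hdac6, a cytosolic deacetylase that acts in aggregate clearance, was 1.52-fold lower, Sirt1 1.32-fold lower and Sirt2 1.47-fold higher (edgeR adjusted p = 0.019, 0.018 and 0.012).

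**Figure D5:**
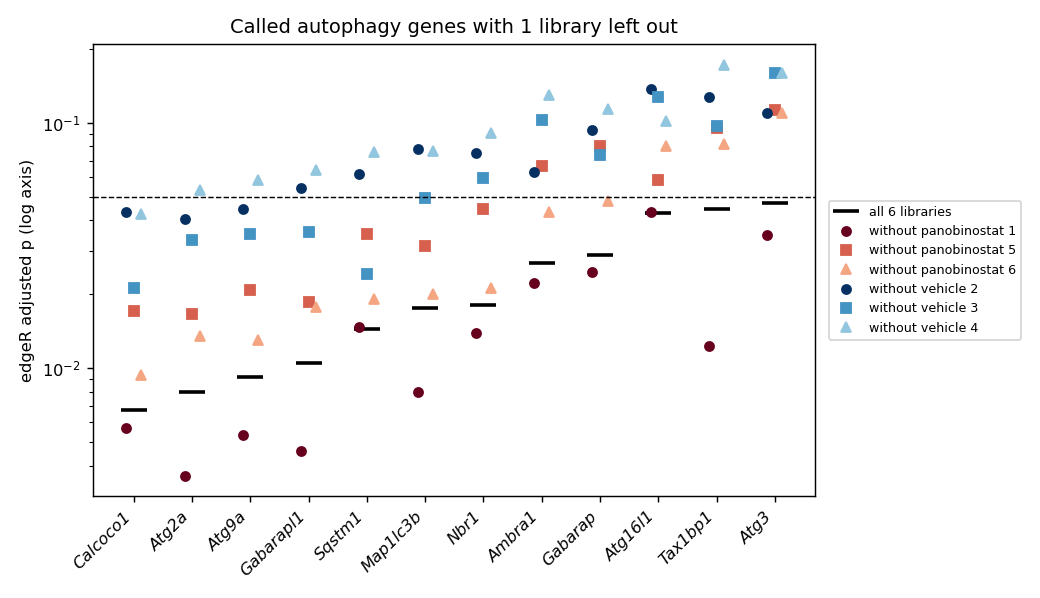
Adjusted p of edgeR's quasi-likelihood test (y axis, logarithmic) for the 12 called autophagy genes with all 6 libraries (black bar) and with 1 library left out (symbols, red for panobinostat and blue for vehicle); the dashed line is 0.05. Leaving out panobinostat 1 keeps all 12 under the line, leaving out vehicle 4 keeps Calcoco1, and Calcoco1 stays under it throughout.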

How the data were processed

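The deposited table holds whole-number read counts per Entrez gene ID in 6 libraries. Per the submitters' processing notes, tools included HISAT2 2.1.0 and featureCounts (Subread 2.0.0), after cutadapt 2.1, with mm10. No strand setting, annotation release or rule for multiply placed reads is stated, so reads of overlapping genes cannot be separated. Columns name a group and no replicate.

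Symbols came from RefSeq (GRCm38.p6) for 25275 of 27179 genes. After filterByExpr, 12916 genes were tested by edgeR's quasi-likelihood F test with TMM scaling (edgeR 4.0.16, R 4.3.3) on treatment alone. Standard errors are the absolute log2 fold change over the square root of F. Exonic lengths (all annotated exons of a gene joined) and 50-base windows came from GENCODE M21. Alternatives were other scalings, DESeq2 1.42.0, limma-voom (limma 3.58.1), robust shrinkage, other filters, each library left out and, chosen after seeing the data, a fit without globin genes. Genes were described singly if called, at an unadjusted p under 0.05, highest per length in their role group, or in the ATG8 family or mitophagy receptors, plus up to 4 called genes per further list. The members and lists were chosen with earlier results of these data known.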

Additional observations from a re-analysis of the deposited data

How the results depend on the processing

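Directions of the 22 autophagy genes with an unadjusted p under 0.05 were the same in all 15 alternatives, and the calls were not. With 1 library left out, calls among the 44 genes ranged from 1 to 13 higher and 0 to 3 lower. In the 6 further lists they ranged from 3 to 26 higher and 0 to 9 lower. Over all tested genes they ranged from 438 to 4056 (303 to 2192 higher, 135 to 1864 lower), or 3.32% to 31.1%. With library size alone they were 7 higher and 2 lower among the 44 genes, 8 lower in the further lists and 2065 lower over all genes; the sign of 6 genes that did not pass (Ulk2, Pik3r4, Atg4c, Atg7, Atg10, Optn) changed. Atg3 was the call lower; DESeq2 gave 2 lower, and limma-voom and the table without a filter gave 0. Leaving out globin genes kept all 12 calls. No paired analysis was possible because the columns cannot be tied to the replicate numbers of the labels, and the further numbers in their names have no stated meaning. Each of the 44 genes had at least 32 counts in every library.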
